A study of Mus musculus with 8 samples.

Results

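Platelet-derived growth factors (PDGFs) are secreted dimers that bind a pair of receptor tyrosine kinases, PDGFRα and PDGFRβ. The genes described here are the 4 ligand genes *Pdgfa*, *Pdgfb*, *Pdgfc* and *Pdgfd* and the 2 receptor genes *Pdgfra* and *Pdgfrb*, chosen by gene name. All 6 of them were found among the 46040 genes of the count table, and all 6 were among the 13542 genes that were tested because their CPM, a count expressed relative to library size, was 1 or more in 2 or more of the 8 libraries. RNA of the LVs was sequenced from male mice of the C57BL/6 strain, 5 to 7 months old, on day 14 of angiotensin II (angII) infusion at 0.1 mg/kg/h from a subcutaneous pump, which was used to raise the blood pressure and induce LV hypertrophy. VEGFR-1 TK-/- mice lack the intracellular tyrosine kinase domain of VEGFR-1, the product of *Flt1*, in every cell, and were set against littermate controls. Both groups had received angII, only mice that survived the infusion could be sampled, and no library without angII was analysed here. The labels contradict each other, since the genotype tag and library name of each library give one genotype and its title gives the other. The 4 libraries called control-tagged and the 4 called knockout-tagged were grouped by tag and library name, every difference is knockout-tagged minus control-tagged, and each sign reverses if the titles are right. Which genotype had the higher or lower level is therefore not established for any gene here, and no expression value served to pick one label over the other. Library names also mention cardiomyocytes, whereas the source given is LV tissue.

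In the vessel wall, endothelial cells secrete PDGF-B and the pericytes and smooth muscle cells around them carry PDGFRβ, an axis needed to recruit and keep pericytes on capillaries. PDGFRα is the receptor of fibroblasts and other mesenchymal cells and responds to PDGF-A, PDGF-B and PDGF-C, while PDGFRβ responds to PDGF-B and PDGF-D. PDGF-A and PDGF-B are processed inside the cell by furin-like convertases, and PDGF-C and PDGF-D are secreted as latent proteins whose CUB domain is removed outside the cell by plasminogen activators. *Pdgfb* and the receptor genes are thus ascribed to different cells of the LV, and the libraries measure each gene as a sum over the tissue.

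Transcripts of *Pdgfb* and *Pdgfrb*, ligand and receptor of the capillary wall, were the most abundant of the family in every LV. *Pdgfrb* was lower in the knockout-tagged than in the control-tagged LVs by 0.54 on the log2 scale (95% interval −0.85 to −0.23) and was the one gene of the family whose groups did not overlap. *Pdgfb* was lower by a smaller amount, −0.24 on the log2 scale, and *Pdgfc*, with few reads, by −0.69. *Pdgfa*, *Pdgfd* and *Pdgfra* had differences between −0.12 and 0.01. None of the 6 genes was called at the thresholds of the study, which ask for an FDR under 0.1 together with a log2 fold change of 0.585 or more in either direction.

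The genes lie on 5 chromosomes of the mouse genome build GRCm38, with *Pdgfa* and *Pdgfra* both on that of *Flt1*. *Pdgfa* (ENSMUSG00000025856) spans chr5:138976014-138997370 on the minus strand, 8.56 Mb from *Flt1*. *Pdgfra* (ENSMUSG00000029231) spans chr5:75152292-75198215 on the plus strand, 72.4 Mb from *Flt1*. *Pdgfb* (ENSMUSG00000000489) is at chr15:79995874-80014977 on the minus strand, *Pdgfc* (ENSMUSG00000028019) at chr3:81036416-81214040 on the plus strand and *Pdgfd* (ENSMUSG00000032006) at chr9:6168584-6378850 on the plus strand. *Pdgfrb* (ENSMUSG00000024620) is at chr18:61045150-61085061 on the plus strand. Exons of *Pdgfa* share 813 bases with *6330403L08Rik* on the opposite strand, those of *Pdgfc* 147 bases with *Gm16000*, also on the opposite strand, and those of *Pdgfra* 652 bases with *Gm42802* and *Gm42803* on the opposite and *Mir7025* on the same strand. The methods name a stranded library kit, but whether the counting used strand is not given in the sources used here, so that reads of these partners may be included. No exon of *Pdgfb*, *Pdgfd* or *Pdgfrb* overlaps an exon of another annotated gene.

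The family members differ enough in sequence for reads to be told apart. The longest run of bases shared by transcripts of 2 members had 21 bases, between *Pdgfra* and *Pdgfrb*, and the other 14 pairs shared at most 15. For *Pdgfa* and *Pdgfb*, the closest ligands in protein sequence, the longest shared runs had 12 bases. The runs of that length that are coding in both genes are shown as the longest coding stretches that these ligands share. They lie in the same order in both genes.

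First run, *Pdgfa* chr5:138986289-138986300 and *Pdgfb* chr15:80001781-80001792, minus strands: gccaacttcctg
Second run, *Pdgfa* chr5:138986265-138986276 and *Pdgfb* chr15:80001757-80001768, minus strands: tgtgtggaggtg

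Among the ligands, *Pdgfc* had the largest fitted difference and *Pdgfa* the smallest, and their promoters are shown for that contrast. Neither gene was called, and a link between the promoter sequence and the difference was not tested. Each window runs from 250 bases before to 50 bases after a RefSeq start on GRCm38.p6, is written in the direction of transcription, and has in capitals each match of the Sp1-type GC box GGGCGG or of the TATA box TATAAA on either strand. RefSeq gives *Pdgfa* more than 1 start, and both of its windows are given.

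*Pdgfc*, chr3:81036166-81036465, plus strand: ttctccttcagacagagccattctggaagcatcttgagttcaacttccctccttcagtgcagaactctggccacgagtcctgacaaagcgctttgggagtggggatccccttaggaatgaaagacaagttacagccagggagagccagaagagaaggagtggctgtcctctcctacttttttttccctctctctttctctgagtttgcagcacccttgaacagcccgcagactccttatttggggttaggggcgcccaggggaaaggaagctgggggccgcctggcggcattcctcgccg
*Pdgfa*, chr5:138994895-138995194, minus strand: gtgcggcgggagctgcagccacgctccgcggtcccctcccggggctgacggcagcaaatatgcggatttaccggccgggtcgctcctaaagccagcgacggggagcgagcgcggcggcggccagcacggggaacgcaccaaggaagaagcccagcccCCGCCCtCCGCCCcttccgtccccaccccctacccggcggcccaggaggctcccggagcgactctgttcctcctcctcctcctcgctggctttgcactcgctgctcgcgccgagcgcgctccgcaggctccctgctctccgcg
*Pdgfa*, chr5:138994232-138994531, minus strand: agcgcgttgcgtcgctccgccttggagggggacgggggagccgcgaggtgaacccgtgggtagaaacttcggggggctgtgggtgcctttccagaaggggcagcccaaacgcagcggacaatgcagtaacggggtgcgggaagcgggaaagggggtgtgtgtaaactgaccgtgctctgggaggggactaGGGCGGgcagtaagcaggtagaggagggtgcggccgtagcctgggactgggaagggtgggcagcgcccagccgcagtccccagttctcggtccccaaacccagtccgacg

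The *Pdgfc* window held 0 GC boxes and 55.0% G and C, and the *Pdgfa* windows held 2 and 1 GC boxes at 73.3% and 67.0% G and C. Of 32851 promoter windows, 35.7% held a GC box and 13.6% a TATA box, with a median of 52.7% G and C. The windows of *Pdgfd* and *Pdgfra* had 0 GC boxes, and that of *Pdgfd* had 1 TATA box. No window of *Pdgfb* or *Pdgfrb* was available. A match describes the letters of the window and is not evidence of a bound factor.

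Between 11449137 and 16239670 counts per library fell on genes, a depth at which *Pdgfb* and *Pdgfrb* had 913 to 2206 reads and *Pdgfc* 13 to 50. *Flt1* had a normalized CPM of 67.4, 68.4, 56.9 and 84.3 in the control-tagged replicates 1 to 4 and 144, 149, 169.6 and 168 in the knockout-tagged replicates 1 to 4, a log2 fold change of 1.19 (SE 0.12, FDR = 0.00808). Because reads from all exons were summed, this value cannot tell a transcript that lacks the kinase domain from an intact one and does not check the genotype labels. *Flt1* was the only gene called by edgeR's quasi-likelihood test over the 8 libraries (0.00738% of the genes tested), and the likelihood ratio test as run here called 53 genes (0.391%). The study describes the groups as mice and gives as many per group as there are libraries, while the labels do not number the animals, and the p-values measure the spread between these libraries.

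Levels of different genes were compared per kilobase (kb) of exon. Over the 8 libraries, *Pdgfb* averaged 27.1 ± 3.25 normalized CPM per kb (SD, n = 8) and *Pdgfrb* 21.5 ± 5.27. *Pdgfb* was above *Pdgfrb* in each library except control-tagged replicate 2, and their ranges, 21.7 to 31.1 and 14.6 to 29.2, overlapped. *Pdgfa* followed with 6.56 ± 0.499 and *Pdgfd* with 6.00 ± 1.19, and their order differed between libraries. *Pdgfra* had 3.39 ± 0.551 normalized CPM per kb, below *Pdgfa* and *Pdgfd* in every library. Its exons span 10024 bases, many of them in alternative transcripts, and division by this length lowers its value. Without that division its group means were 35.4 (control-tagged) and 32.5 (knockout-tagged) normalized CPM. These were above 20.4 and 20.5 for *Pdgfa* and 19.2 and 18.7 for *Pdgfd*, so that its place in the order depends on the length used. *Pdgfc* was last in every library with 0.431 ± 0.165. The order of the family was the same in all 8 libraries except within the pairs *Pdgfb* and *Pdgfrb*, and *Pdgfa* and *Pdgfd*. The gap between the means of *Pdgfb* and *Pdgfrb* was larger than either SD, and that between *Pdgfa* and *Pdgfd* was smaller than the SD of *Pdgfd*.

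**Figure D1:**
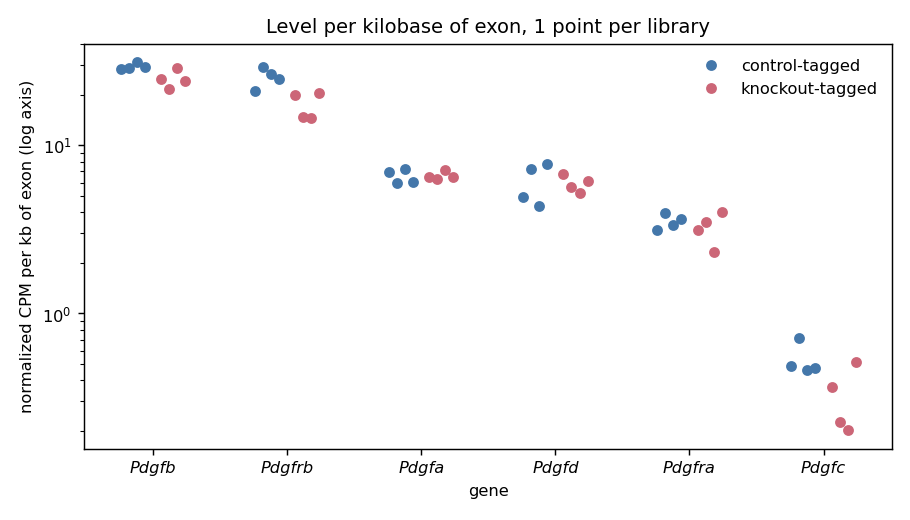
Normalized CPM per kb of exon (log axis) of each PDGF gene, ordered by its mean, with 1 point per library and the groups in separate colours. *Pdgfb* and *Pdgfrb* lie between 14.6 and 31.1, and *Pdgfc* between 0.202 and 0.713, below every other member.

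Taken per kb, *Pdgfb* made up 69.1% ± 2.21 (SD, n = 4) of the ligand transcripts of the control-tagged LVs and 65.8% ± 2.67 of those of the knockout-tagged LVs. *Pdgfa* accounted for 15.4% ± 1.79 and 17.5% ± 0.719, *Pdgfd* for 14.2% ± 3.74 and 15.8% ± 2.25, and *Pdgfc* for 1.25% ± 0.281 and 0.877% ± 0.395. Of the receptor transcripts, *Pdgfrb* made up 86.9% to 88.8% in the control-tagged and 80.9% to 86.4% in the knockout-tagged libraries, without overlap. The receptor of mural cells was thus the more abundant receptor transcript in every LV, also by normalized CPM without division by length. The size of its share depends on the exon lengths used.

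The first comparison asked whether the PDGF receptors differed between the groups of angII-treated LVs. *Pdgfrb*, which encodes the receptor of pericytes and smooth muscle cells, had a normalized CPM of 114.6, 160.1, 146 and 136 in the control-tagged replicates 1 to 4. In the knockout-tagged replicates 1 to 4 it had 109.8, 81.1, 79.8 and 112.5. The groups did not overlap, but the lowest control-tagged library, replicate 1, stood close to the highest knockout-tagged library, replicate 4, and knockout-tagged replicates 2 and 3 were the lowest of the 8. Group means of 139 ± 19.1 and 95.8 ± 17.8 (SD, n = 4) corresponded to a log2 fold change of −0.54 (SE 0.14), and the percent change was −31.2%. By edgeR's quasi-likelihood test its unadjusted p was 0.0027 and its FDR = 0.442, so that it was not called. The 2-sided exact permutation test of the single gene gave p = 0.0286, the smallest p that 4 against 4 allow. Any gene whose groups do not overlap reaches this p. Groups without overlap were found in 4.98% of the 13542 genes tested, and 2.53% were lower without overlap, as *Pdgfrb* was. By the likelihood ratio test and by DESeq2 the FDR of *Pdgfrb* was 0.0921 and 0.0983, under 0.1, with a log2 fold change short of the threshold, and over the 16 alternatives its FDR ranged from 0.0921 to 0.941.

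*Pdgfra*, the receptor of fibroblasts, had a normalized CPM of 31.5, 39.8, 33.7 and 36.8 in the control-tagged replicates 1 to 4 and 31.5, 35.1, 23.1 and 40.4 in the knockout-tagged replicates 1 to 4. The groups overlapped over most of their range, the highest library was knockout-tagged replicate 4 and the lowest was knockout-tagged replicate 3. The log2 fold change was −0.12 (SE 0.15, 95% interval −0.46 to 0.21), not called by edgeR's quasi-likelihood test (FDR = 0.842), and became 0.007 without knockout-tagged replicate 3. Differences between the bounds of this interval are not excluded by these libraries.

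**Figure D2:**
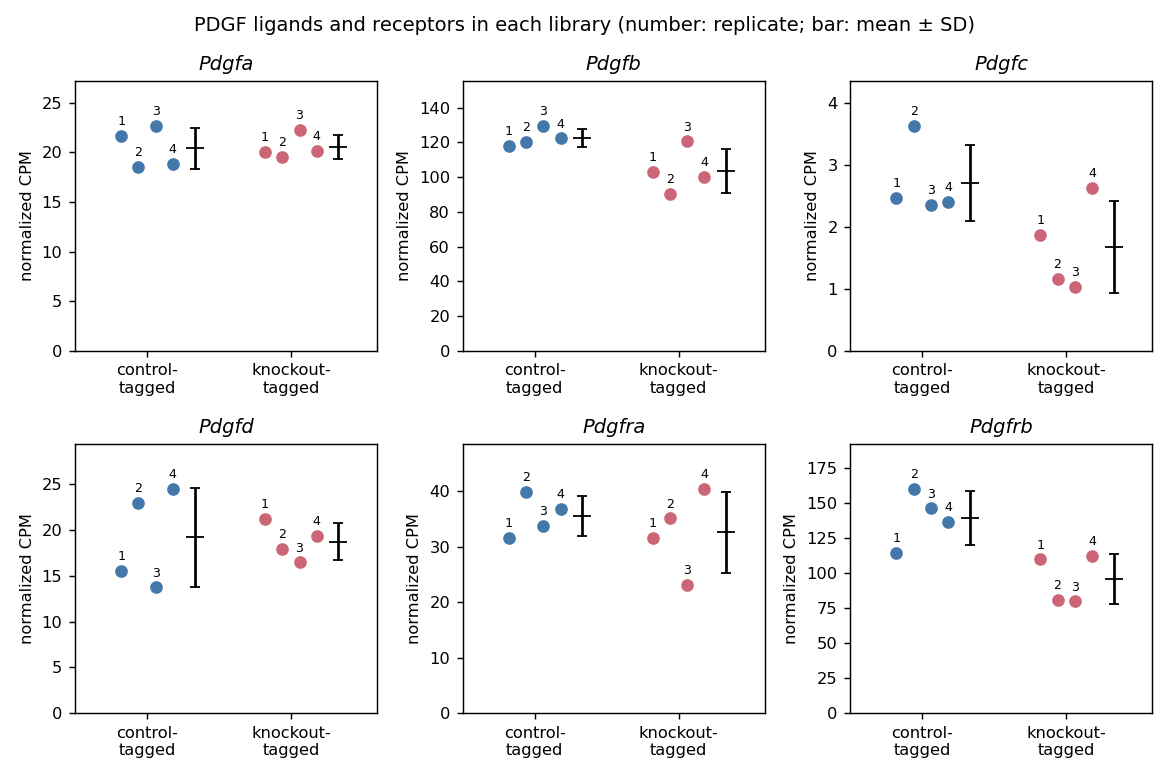
Normalized CPM of each PDGF gene in each library, with replicate numbers and the mean ± SD (n = 4) of each group; each panel has its own axis, starting at 0. All control-tagged libraries lie above all knockout-tagged libraries for *Pdgfrb*, 114.6 or more against 112.5 or less, and the groups of the other genes overlap.

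The second comparison asked the same of the ligands. *Pdgfb*, the endothelial ligand of PDGFRβ, had a normalized CPM of 118, 120.3, 129 and 122 in the control-tagged replicates 1 to 4. In the knockout-tagged replicates 1 to 4 it had 103, 90.2, 121 and 100.03. Knockout-tagged replicate 3 lay inside the control-tagged range and the other 3 knockout-tagged libraries lay below it. Group means of 122 ± 5.03 and 103 ± 12.7 (SD, n = 4) corresponded to a log2 fold change of −0.24 (SE 0.10, 95% interval −0.46 to −0.03). By edgeR's quasi-likelihood test the unadjusted p was 0.0315 and the FDR = 0.521, and the exact permutation test gave p = 0.0857. Leaving out knockout-tagged replicate 3 gave a log2 fold change of −0.33 (unadjusted p = 0.00656 by edgeR), and leaving out knockout-tagged replicate 2 gave −0.19 (unadjusted p = 0.0951 by edgeR). The unadjusted p was also above 0.05, between 0.0524 and 0.074, without control-tagged replicate 3 or 4 or knockout-tagged replicate 1 or 4.

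*Pdgfc*, a ligand of PDGFRα, was covered by 33, 50, 35 and 30 reads in the control-tagged replicates 1 to 4 and by 23, 13, 13 and 33 reads in the knockout-tagged replicates 1 to 4. As normalized CPM these were 2.47, 3.63, 2.35 and 2.40 in the former and 1.87, 1.15, 1.03 and 2.63 in the latter. Control-tagged replicate 2 was the highest, and knockout-tagged replicate 4 was above the other 3 control-tagged libraries, so that the groups overlapped. The log2 fold change of −0.69 (SE 0.31) was the largest of the family and the least precise, with a 95% interval from −1.38 to −0.009, and edgeR's quasi-likelihood test gave FDR = 0.554. Counting error alone gives a coefficient of variation of 16.4% in the control-tagged and 22.1% in the knockout-tagged libraries, where 22.6% and 44.3% were observed. The unadjusted p by edgeR was 0.0475 with all libraries, and with a library left out it stayed under 0.05 only without control-tagged replicate 3 (0.0489) or knockout-tagged replicate 4 (0.00848, log2 fold change −1.0). It was highest, between 0.119 and 0.136, without control-tagged replicate 2 or knockout-tagged replicate 2 or 3, and it was 0.0687 with scaling by total counts.

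*Pdgfa*, a ligand of PDGFRα, had a normalized CPM of 21.6, 18.5, 22.7 and 18.9 in the control-tagged replicates 1 to 4 and 20.1, 19.5, 22.3 and 20.2 in the knockout-tagged replicates 1 to 4. Every knockout-tagged library lay inside the control-tagged range. The log2 fold change was 0.01 (SE 0.11, 95% interval −0.22 to 0.24; FDR = 0.991 by edgeR), and its sign changed when libraries were scaled by total counts or control-tagged replicate 2 or 4 or knockout-tagged replicate 3 was left out. The coefficient of variation in the knockout-tagged group, 5.91%, was no larger than the 6.32% that counting error gives.

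*Pdgfd*, a ligand of PDGFRβ, had a normalized CPM of 15.5, 22.9, 13.7 and 24.5 in the control-tagged replicates 1 to 4 and 21.2, 17.9, 16.4 and 19.3 in the knockout-tagged replicates 1 to 4. The control-tagged libraries fell into a higher and a lower pair, and all knockout-tagged libraries lay between them. The coefficient of variation was 27.9% in the control-tagged group and 10.8% in the knockout-tagged group, against 6.22% and 6.62% from counting error. The log2 fold change was −0.03 (SE 0.18, 95% interval −0.43 to 0.36, FDR = 0.974 by edgeR). It became 0.07 without control-tagged replicate 2, 0.11 without control-tagged replicate 4 and 0.02 without knockout-tagged replicate 3.

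**Figure D3:**
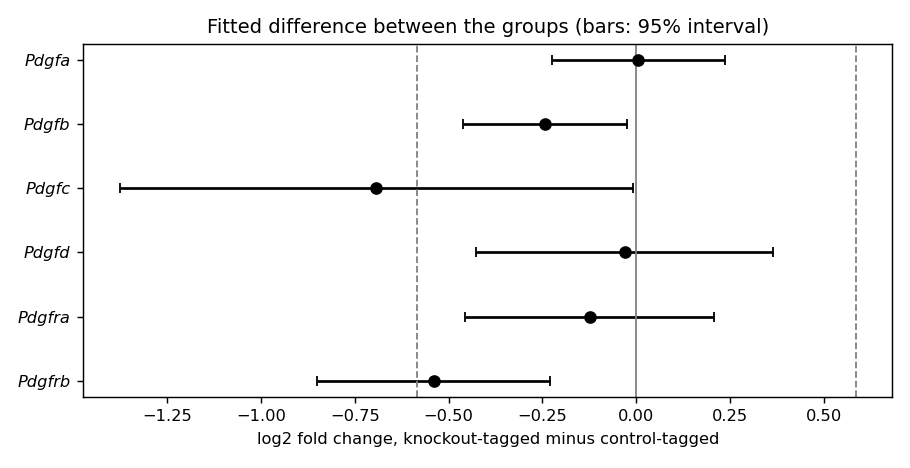
Fitted log2 fold change of each PDGF gene, knockout-tagged minus control-tagged (points), with its 95% interval (bars), 0 as a solid line and the threshold of 0.585 in each direction as dashed lines. The intervals of *Pdgfb*, *Pdgfc* and *Pdgfrb* lie below 0, and those of *Pdgfa*, *Pdgfd* and *Pdgfra* include 0.

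Over the family, 5 of the 6 genes had a log2 fold change below 0, as had 50.3% of all genes tested, and the median was −0.18 against −0.0012 over all genes. An unadjusted p under 0.05 was found for 3 of the 6, *Pdgfrb*, *Pdgfb* and *Pdgfc*, against 8.96% of all genes and 5.64% that were lower. With 6 genes these counts are a description and carry no test of the family as a whole.

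Ratios within a library compare a ligand with its receptor, or a gene with markers of the cells that are known to carry it, and 8 of them were tested by 2-sided exact permutation with Benjamini-Hochberg adjustment over the 8. A marker list entered as the mean log2 normalized CPM of its tested members. The log2 ratio of *Pdgfra* to *Pdgfrb* was −1.86, −2.0, −2.11 and −1.88 in the control-tagged replicates 1 to 4 and −1.79, −1.21, −1.78 and −1.47 in the knockout-tagged replicates 1 to 4. The groups did not overlap and differed by 0.40 (exact permutation p = 0.0286, adjusted 0.114). For *Pdgfc* to *Pdgfra* the log2 ratio was −3.65 ± 0.20 in the control-tagged and −4.22 ± 0.40 in the knockout-tagged libraries (SD, n = 4). The difference was −0.57 without overlap (exact permutation p = 0.0286, adjusted 0.114). The groups nearly touched, with −3.85 in control-tagged replicate 4 and −3.86 in knockout-tagged replicate 4. That of *Pdgfd* to *Pdgfrb* was higher by 0.55 in the knockout-tagged libraries with overlapping groups (exact permutation p = 0.0571, adjusted 0.152). None of these 3 differences passed at an adjusted value under 0.1, and the smallest p of the design adjusted over 8 ratios could pass only if several ratios reached it.

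The pair of PDGF-B and its receptor gave a log2 ratio of *Pdgfb* to *Pdgfrb* of 0.04, −0.41, −0.17 and −0.16 in the control-tagged replicates 1 to 4. It was −0.09, 0.15, 0.59 and −0.17 in the knockout-tagged replicates 1 to 4. The difference of 0.30 was smaller than the spread of the knockout-tagged libraries, where the SD was 0.34 (exact permutation p = 0.171, adjusted 0.32). For *Pdgfa* to *Pdgfra* the log2 ratio differed by 0.16 (exact permutation p = 0.571, adjusted 0.653), and by −0.04 without knockout-tagged replicate 3. Neither difference was detectable beyond the spread of these libraries.

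The cells that carry the receptors were compared through marker genes, whose levels are given beside those of the PDGF genes. These lists were written with earlier results of these data known, so their counts describe the libraries and are no independent support. Of 13 mural cell markers, all were lower in the knockout-tagged LVs, with a median log2 fold change of −0.48, and 9 had an unadjusted p under 0.05, against 5.64% of all genes that were lower at that p. At an FDR under 0.1, edgeR's quasi-likelihood test called 0 of the 13. *Steap4*, a metalloreductase gene found in pericytes, was lower by 0.79 on the log2 scale. *Kcnj8*, the pore subunit of the ATP-sensitive potassium channel of pericytes, was lower by 0.65, *Colec11*, a collectin gene, by 0.60, and *Mcam*, an adhesion molecule of the vessel wall, by 0.48. *Foxs1*, a transcription factor gene of pericytes, was lower by 0.74, while *Abcc9*, the partner subunit of *Kcnj8*, had a log2 fold change of −0.10. The summed level of the list was 1301 to 1865 normalized CPM in the control-tagged and 956 to 1306 in the knockout-tagged libraries, and no marker was at 0. Leaving out any library, or any other alternative, left 9 to 12 of the 13 at an unadjusted p under 0.05.

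Set against the mural cell markers, *Pdgfrb* had a log2 ratio of 1.32, 1.41, 1.47 and 1.35 in the control-tagged replicates 1 to 4 and 1.38, 1.37, 1.10 and 1.37 in the knockout-tagged replicates 1 to 4. Apart from knockout-tagged replicate 3, the knockout-tagged libraries lay inside the control-tagged range. The difference was −0.08 (exact permutation p = 0.4, adjusted 0.533), and −0.01 without knockout-tagged replicate 3, against −0.54 for *Pdgfrb* itself. In RNA of whole LVs, fewer cells of a type and less RNA per cell cannot be told apart, and the part of mural cell number in the difference of *Pdgfrb* was not tested. The 9 markers of vascular smooth muscle had a median log2 fold change of −0.02, with 5 lower and 4 higher. *Acta2* was the lowest at −0.43 (SE 0.36), and *Myh11* and *Tagln* had −0.02 and 0.001. Only *Pln* had an unadjusted p under 0.05, a share of 11.1% of the list against 8.96% of all genes. *Pln* was higher by 0.32 and is also a gene of cardiomyocytes.

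Endothelial markers, set beside *Pdgfb*, were lower in 12 of 12 genes with a median log2 fold change of −0.27, where 50.3% of all genes were below 0. At an unadjusted p under 0.05 there were 6 of them, against 5.64% of all genes that were lower, and none passed an FDR of 0.1. The 6 included *Tie1* and *Cdh5*, genes of an endothelial receptor and of the junction protein VE-cadherin, which were lower by 0.40 and 0.38 on the log2 scale, *Ramp2* by 0.38 and *Esam* by 0.27. Their summed level was 2104 to 2657 normalized CPM in the control-tagged and 1833 to 2087 in the knockout-tagged libraries. The log2 ratio of *Pdgfb* to the endothelial markers was −0.37 ± 0.09 and −0.35 ± 0.13 (SD, n = 4), a difference of 0.02 whose sign changed without control-tagged replicate 2 (−0.01) or knockout-tagged replicate 3 (−0.05) (exact permutation p = 0.771, adjusted 0.771). The part of endothelial RNA content in the difference of *Pdgfb* was not tested.

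Fibroblast markers, set beside *Pdgfra*, were lower in 13 of 13 tested genes with a median log2 fold change of −0.32, and 3 had an unadjusted p under 0.05, *Cd248* (−0.88), *Pcolce* (−0.32) and *Mfap5* (−0.54), against 5.64% of all genes that were lower at that p. None of the 13 passed an FDR of 0.1. *Cd248*, which encodes endosialin, is also expressed by pericytes. The count of 3 went to 1 when control-tagged replicate 2, knockout-tagged replicate 2 or knockout-tagged replicate 3 was left out or total counts were used, to 5 without control-tagged replicate 1 or knockout-tagged replicate 1, and to 6 without knockout-tagged replicate 4 or without the filter on low counts. The summed level was 1922 to 2946 normalized CPM in the control-tagged and 1003 to 2388 in the knockout-tagged libraries. Set against the fibroblast markers, *Pdgfra* had a log2 ratio of −1.42, −1.50, −1.38 and −1.18 in the control-tagged replicates 1 to 4 and −1.43, −0.81, −0.96 and −1.22 in the knockout-tagged replicates 1 to 4, a difference of 0.26 with overlapping groups (exact permutation p = 0.2, adjusted 0.32).

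**Figure D4:**
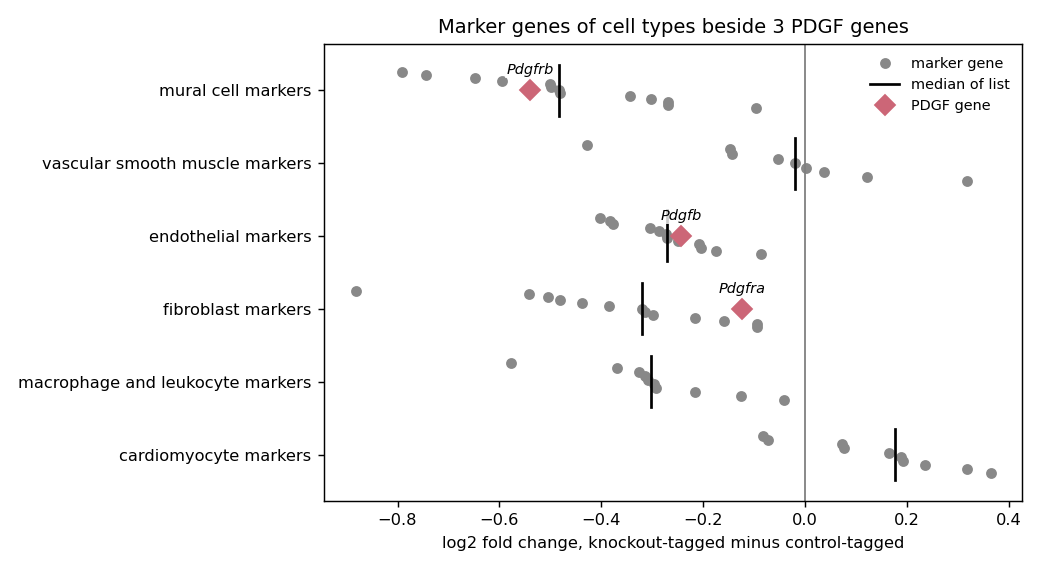
Log2 fold change, knockout-tagged minus control-tagged, of each marker gene (grey points) by cell type, with the median of each list (black line) and *Pdgfrb*, *Pdgfb* and *Pdgfra* (diamonds) on the row of the cells known to express them. *Pdgfrb* (−0.54) lies near the mural median of −0.48 and *Pdgfb* (−0.24) near the endothelial median of −0.27, whereas *Pdgfra* (−0.12) lies above the fibroblast median of −0.32.

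Of the other cell types of the LV, 10 of 10 markers of macrophages and leukocytes were lower, with a median log2 fold change of −0.30. Of these, 1 had an unadjusted p under 0.05 (*Itgam*, −0.58). Among all genes tested, 50.3% were below 0, 8.96% had an unadjusted p under 0.05 and 5.64% were lower at that p. Markers of cardiomyocytes were higher in 8 of 10 genes, with a median of 0.18 and 2 at an unadjusted p under 0.05 (*Tnni3* and *Pln*), and their summed level of 69982 to 112715 normalized CPM was the highest of the 18 lists, in tissue labelled as LV. Activated fibroblast genes were lower in 9 of 9 (median −0.49, 1 at that p, *Fap*, −0.55). In lists of this size, the 1 gene at that p here and among the macrophage and leukocyte markers is near the share of all genes. Platelets store PDGF, and 3 of 7 platelet and megakaryocyte markers were tested, with a summed level of 8.69 to 18.6 normalized CPM and 0 at that p. Red blood cell and atrial markers had medians of −0.37 and −0.13 with 0 at that p, Schwann cell markers had 0.29 with 1 (*Cdh19*, 0.57), and none of 6 adipocyte markers passed the filter on low counts.

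**Figure D5:**
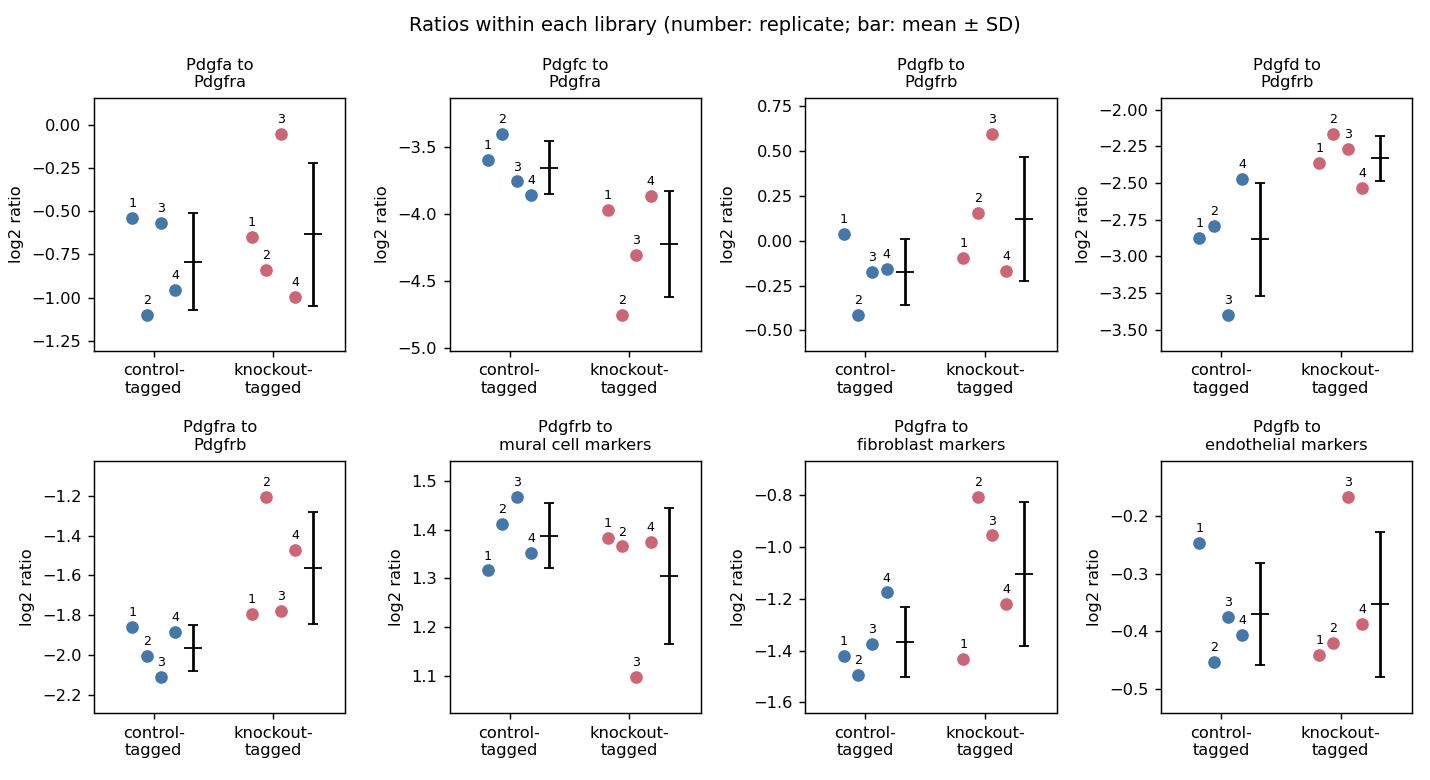
The 8 log2 ratios within each library, with replicate numbers and the mean ± SD (n = 4) of each group, on an axis of its own in each panel that does not start at 0. The groups do not overlap for *Pdgfc* to *Pdgfra*, where they nearly touch (−3.85 against −3.86), and for *Pdgfra* to *Pdgfrb*. Knockout-tagged replicate 3 stands apart for *Pdgfrb* to mural cell markers at 1.10.

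Genes that activate, bind or retain PDGF ligands were taken as a list of 16, of which 15 were tested. This list, too, was written with earlier results of these data known. Of these, 13 were lower, the median log2 fold change was −0.29, 5 had an unadjusted p under 0.05, all lower, against 5.64% of all genes that were lower at that p, and none had an FDR under 0.1. *Sparc*, whose matrix protein binds PDGF-B, was at 1221 ± 238 normalized CPM in the control-tagged and 872 ± 205 in the knockout-tagged libraries (SD, n = 4), a log2 fold change of −0.48 without overlap. *Plau*, the urokinase that releases active PDGF-D, was at 7.79 ± 2.29 and 5.58 ± 0.219, a log2 fold change of −0.48 without overlap. *Lrp1*, an endocytic receptor that binds PDGFRβ, and *Nrp2*, a neuropilin, were lower by 0.36 and 0.38 on the log2 scale with overlapping groups. *Plat*, the tissue plasminogen activator that releases active PDGF-C, was lower by 0.29. *Furin*, the convertase of PDGF-A and PDGF-B, had a log2 fold change of −0.02, and *Pdgfrl*, which encodes a PDGF receptor-like protein without a kinase domain, had 0.16 (SE 0.42).

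Of 48 genes of PDGF receptor signaling and trafficking, 47 were tested, 34 of them lower, with a median log2 fold change of −0.08 and none at an FDR under 0.1. An unadjusted p under 0.05 was found for 4 lower genes and 1 higher gene, 10.6% of the list, a share near the 8.96% of all genes, so that the genes named next describe single genes and not the pathway. *Nck2*, an adaptor that binds the phosphorylated receptor, was lower by 0.48 on the log2 scale (unadjusted p = 0.00246, FDR = 0.442 from edgeR's quasi-likelihood test) without overlap of the groups. *Ptk2*, the focal adhesion kinase, was lower by 0.30 without overlap, and *Pik3cb*, a catalytic subunit of PI3 kinase, and *Sh2b3*, an adaptor that limits cytokine signals, by 0.28 and 0.24 with overlap. *Grb2*, the adaptor that links the receptor to Ras, was the higher gene, with a log2 fold change of 0.25 and no overlap of the groups. Over both lists, with 15 and 47 genes tested, 10 genes were at an unadjusted p under 0.05. They made up 33.3% of the activation and binding list and 10.6% of the signaling list, against 8.96% of all genes. The count of 10 went to 5 without control-tagged replicate 2 or knockout-tagged replicate 1. It went to 4 without knockout-tagged replicate 2 or 3, and was 7 to 13 in the other alternatives.

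Targets of the serum response, the early genes that PDGF induces in cultured cells, had a median log2 fold change of −0.05 over 15 genes, of which 1, *Ier3*, had an unadjusted p under 0.05 and was higher by 0.51. That is 6.67% of the list against 8.96% of all genes. Among 8 other ligands and receptors of the PDGF and VEGF family tested, 6 were higher and only *Flt1* had an FDR under 0.1. The list of 6 hypertrophy markers, genes known to be raised in LV hypertrophy and heart failure, had a median log2 fold change of −0.36, with 5 of 6 lower. Of all genes, 50.3% were below 0, and none of the 6 had an FDR under 0.1. *Acta1*, the skeletal α-actin, and *Ankrd1*, an ankyrin repeat protein of the sarcomere, were lower by 1.51 and 0.82 on the log2 scale. Their groups did not overlap, and 2.53% of all genes were lower without overlap. *Nppa* and *Nppb*, the genes of ANP and BNP, had −0.31 and −0.42 (SE 0.27 each) with overlapping groups, and *Myh7* had 0.13 (SE 0.48). Under the sample titles, *Acta1*, *Ankrd1*, *Nppa* and *Nppb* would instead be higher in the knockout, and *Pdgfrb*, *Pdgfb* and *Pdgfc* with them. *Myh7* would be lower.

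PDGFRα and PDGFRβ belong to the class of receptor tyrosine kinases that includes KIT and CSF1R, and each PDGF receptor gene has a relative as its neighbour. *Csf1r*, the receptor of macrophage colony-stimulating factor, starts 15.5 kb after the end of *Pdgfrb* on the same strand (chr18:61100598-61132149). Its log2 fold change was −0.49 (SE 0.16, unadjusted p = 0.00945, FDR = 0.464 from edgeR's quasi-likelihood test), with means of 73.6 ± 12.5 and 52.3 ± 11.3 normalized CPM (SD, n = 4) and overlapping groups. *Kit*, 377 kb from *Pdgfra*, had a log2 fold change of −0.34 (SE 0.18) and *Kdr*, the gene of VEGFR-2 and 735 kb from *Pdgfra*, had 0.01 (SE 0.17). Of the 7 receptors and ligands of this class, 5 were lower, with a median of −0.22, where 50.3% of all genes were below 0.

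Levels of the 6 genes were also compared with each other within groups, as correlations of deviations from the group means over the 8 libraries, in 15 pairs. *Pdgfa* and *Pdgfd* deviated in opposite directions (Pearson's r = −0.91, Spearman's rho = −0.88, exact permutation within groups p = 0.0469, adjusted 0.247), and r was −0.85 without the 2 libraries farthest from the median of *Pdgfa*. In each group, replicate 3 had the highest *Pdgfa*, the lowest *Pdgfd* and the lowest TMM scaling factor (0.917 control-tagged, 0.938 knockout-tagged). The part of library composition in this correlation was not tested. *Pdgfa* and *Pdgfra* had r = −0.69 and rho = −0.67 (exact permutation p = 0.0347, adjusted 0.247), and r was −0.53 without such libraries. *Pdgfc* and *Pdgfrb* deviated together (r = 0.85, rho = 0.71, exact permutation p = 0.066, adjusted 0.247), and r was 0.76 without the 2 libraries farthest from the median of *Pdgfc*. *Pdgfb* and *Pdgfrb*, ligand and receptor of the capillary wall, had r = −0.04 and rho = 0.10 (exact permutation p = 0.927, adjusted 0.927). No pair passed after adjustment, the lowest adjusted value being 0.247.

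Genes most like each member over the 8 libraries were ranked by Pearson's correlation of log2 normalized CPM among the genes tested, and since they were selected as the highest of many, the values carry no test. *Slc30a7* (r = 0.99), *Ldlrad4* (0.98) and *Elmo1* (0.98) were most like *Pdgfrb*. *Nos3*, the endothelial nitric oxide synthase, was most like *Pdgfb* (r = 0.97), with a log2 fold change of −0.32, followed by *Stac* and *Trim25* (0.96 each). *Adgra2* (r = 0.99), *Mfap5* (0.98) and *Dio2* (0.98) were most like *Pdgfc*, the former a gene of an adhesion receptor of vessels and mesenchyme and *Mfap5* one of the fibroblast markers. *Rps26* was most like *Pdgfa* (r = 0.98), *Khsrp* most like *Pdgfd* (0.98) and *Kcnt2* most like *Pdgfra* (0.98). As deviations from the group means, *Adgra2* and *Mfap5* were again among the 3 genes most like *Pdgfc*, *Slc30a7* among those most like *Pdgfrb*, *Kcnt2* and *C78339* among those most like *Pdgfra*, and *Khsrp* among those most like *Pdgfd*, whereas *Nos3* was not among those most like *Pdgfb*.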

How the data were processed

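Per the labels and the methods of the study, reads were trimmed (Trim Galore 0.4.4), aligned to GRCm38 (STAR 2.5.4b) and assigned to GENCODE M16 genes (featureCounts) by the authors. They deposited 1 table of raw counts per gene, without normalization. STAR kept reads with several alignments up to a maximum. Whether featureCounts used strand or counted such reads is not given in the sources used here. The labels name ribosomal RNA depletion and the methods poly-A selection with a stranded kit.

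Genes at a CPM of 1 or more in 2 or more libraries were kept, normalized with TMM factors and tested on all 8 libraries with edgeR 4.0.16 (quasi-likelihood F test, no covariates) in R 4.3.3. P-values were adjusted over all tested genes by the Benjamini-Hochberg method and are given as FDR. Normalized CPM uses the TMM-scaled library size, and log2 values a prior count of 2. Exon lengths and positions came from GENCODE M21 (GRCm38). Exact permutation tests were run in Python 3.11.15. P-values measure the spread between libraries. As alternatives, DESeq2 1.42.0, the likelihood ratio test, robust dispersion, RLE factors, total counts, no filter, filterByExpr, a replicate block and omission of each library were used, and for ratios a prior count of 0.5. The quasi-likelihood script was tested on simulated data.

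The genes, lists and ratios were chosen with earlier results of these data known. Named genes were the 6 members, *Flt1*, up to 4 genes of each list with the smallest unadjusted p under 0.05, and the genes most like each member. *Plat*, *Grb2*, *Foxs1*, *Abcc9*, *Nppa*, *Nppb*, *Myh7*, *Furin*, *Pdgfrl*, *Kit*, *Kdr*, *Acta2*, *Myh11* and *Tagln* were named after their values were seen. Protein sequences were not used here.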

Additional observations from a re-analysis of the deposited data

Results flagged for a closer look

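In 28 groups of 4 values, the 6 genes and 8 ratios in each group of libraries, 2 had a library far from the others by Dixon's criterion, where about 1 in 20 is found by chance. *Pdgfc* in the control-tagged group was one, because replicate 2 (3.63 normalized CPM, 50 reads) stood above the other 3 libraries (2.35 to 2.47) by a share of 0.909 of the range. The log2 ratio of *Pdgfrb* to the mural cell markers in the knockout-tagged group was the other, because replicate 3 (1.10) stood below the other 3 libraries (1.37 to 1.38) by a share of 0.938 of the range.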

How the results depend on the processing

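None of the 6 genes was called under any of the 16 alternatives of test, dispersion, normalization, filter, block and libraries, except that DESeq2 gave no FDR for *Pdgfc*, which could not be called there. *Pdgfrb*, *Pdgfb* and *Pdgfc* had a log2 fold change below 0 under all 16, from −0.63 to −0.46, −0.33 to −0.19 and −1.0 to −0.52, and the FDR of *Pdgfrb* ranged from 0.0921 to 0.941. The sign of *Pdgfa* reversed with total counts (−0.0044). Leaving out each library in turn gave −0.0387 to 0.0581 for *Pdgfa*, −0.17 to 0.11 for *Pdgfd* and −0.25 to 0.00699 for *Pdgfra*, and −0.0374 to 0.28 for the log2 ratio of *Pdgfa* to *Pdgfra* and −0.0453 to 0.0584 for that of *Pdgfb* to endothelial markers. The number of genes called was 1, and 53 by the likelihood ratio test, 32 by DESeq2, 23 without the filter on low counts and 1 to 3 with a library left out, and the cause was not tested. The number of fibroblast markers at an unadjusted p under 0.05, 3 of 13, was 1 with total counts, 6 without the filter and 1 to 6 with a library left out, and that of PDGF pathway genes, 10, was 4 to 12 with a library left out. Scaling by RLE factors or total counts moved the median log2 fold change of all genes by 0.002 and −0.0157.

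The replicate number used as a block gave −0.55 (FDR = 0.448) for *Pdgfrb*, −0.25 for *Pdgfb* and −0.73 for *Pdgfc*, and changed no call of the 6 genes. The correlation between libraries with the same number, as deviations from the group means, was −0.03, 0.03, 0.34 and −0.06 for replicates 1 to 4. Only those numbered 3 correlated best with each other. Whether libraries with the same number had more than the number in common was not tested. For *Pdgfc*, counting error was large, 16.4% in the control-tagged and 22.1% in the knockout-tagged libraries. The observed coefficients of variation, 22.6% and 44.3%, were larger still.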
